A study of Mus musculus with 15 samples.

Results

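The complement system is a set of secreted proteins, membrane receptors and inhibitors that marks debris, microbes and, in the brain, synapses for removal. Members were all probe sets that the platform annotation gives to 8 genes: C1qa, C1qb, C1qc, C3, C4b, C3ar1, C5ar1 and Serping1. This rule found 12 of the 45037 probe sets without controls, and they covered 7 of the 8 genes. C1qb and C3ar1 had 3 probe sets each, C5ar1 had 2 and the others 1. C4b was measured only through a probe set that the annotation also gives to its near copy C4a, so its value is given as C4a/C4b. C3, the central component, has no annotated probe set in the table used and was not analysed here.

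Expression was measured in total RNA of mouse forebrain on 15 Affymetrix Mouse Genome 430 2.0 arrays, 5 in each of 3 groups. VEH-Sham received vehicle and a sham operation, VEH-HI received vehicle and hypoxic ischemia (a shortage of oxygen together with blood flow), and EPO-HI received erythropoietin (5 U per g, into the peritoneum) and hypoxic ischemia. Each injection was given 1 h before the procedure, and no group had erythropoietin with sham surgery. The sources used here give no strain, age, sex or time from injury to sampling. Nothing says that samples were separate animals, so p-values describe only sample-to-sample spread, part of which may be technical. Levels are log2(intensity + 16), and differences on this scale understate the change of dim probe sets.

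In the classical pathway C1q, built from chains encoded by C1qa, C1qb and C1qc, binds to a surface and activates proteases that cleave C4 and then C3. The fragments C3a and C5a act on the receptors encoded by C3ar1 and C5ar1, and Serping1 encodes the C1 inhibitor, which blocks the C1 proteases. In healthy brain C1q comes mostly from microglia, while C4 can come from astrocytes and other cells.

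The arrays formed a pair of sets that the labels do not record. VEH-Sham 1 to 4 had median intensities of 55.4 to 58.0 (set A), and VEH-Sham 5 with the 10 hypoxic ischemia arrays had medians of 39.3 to 44.5 (set B). Set A had ratios of the 3' to the 5' Gapdh control, which bear on RNA quality, of 0.634 to 0.719, while set B ranged from 0.716 to 0.756. These ranges overlapped between 0.716 and 0.719, so the Gapdh ratio ran lower in set A without fully separating the sets. For the Actb control the same ratio showed no such shift. Values for set A, from 1.28 to 1.4, all lay within the spread of set B, from 1.24 to 1.5. Because of its median VEH-Sham 5 is shown apart, and differences from VEH-Sham 5 alone are given beside those from all 5 VEH-Sham arrays. Over the 15 arrays the 8 neuron markers had mean levels from 10.65 in VEH-HI 6 to 11.20 in VEH-Sham 1, with Stmn2 and Map2 the brightest.

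C1qb, C1qc and C1qa lie next to each other in the RefSeq gene order of assembly GRCm38.p6, with 0 other listed genes between them. The 250 bases upstream of the annotated starts of C1qb (chr4:136886201-136886450, minus strand), C1qc (chr4:136892915-136893164, minus strand) and C3ar1 (chr6:122856158-122856407, minus strand) are shown because these are the members in the promoter table that passed a test in VEH-HI. They come from RefSeq (GRCm38.p6), which gave a promoter for 5 of the 8 genes. Capitals mark matches on either strand to 7 searched motifs.

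C1qb upstream: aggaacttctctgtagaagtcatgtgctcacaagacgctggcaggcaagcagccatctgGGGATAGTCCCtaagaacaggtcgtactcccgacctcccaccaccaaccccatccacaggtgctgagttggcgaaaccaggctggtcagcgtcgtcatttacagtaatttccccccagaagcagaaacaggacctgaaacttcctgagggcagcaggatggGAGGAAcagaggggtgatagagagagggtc
C1qc upstream: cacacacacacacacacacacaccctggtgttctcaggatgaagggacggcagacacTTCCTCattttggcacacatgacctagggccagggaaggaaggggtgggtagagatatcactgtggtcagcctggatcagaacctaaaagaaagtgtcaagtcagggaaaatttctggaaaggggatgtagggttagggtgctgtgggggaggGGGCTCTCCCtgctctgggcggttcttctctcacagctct
C3ar1 upstream: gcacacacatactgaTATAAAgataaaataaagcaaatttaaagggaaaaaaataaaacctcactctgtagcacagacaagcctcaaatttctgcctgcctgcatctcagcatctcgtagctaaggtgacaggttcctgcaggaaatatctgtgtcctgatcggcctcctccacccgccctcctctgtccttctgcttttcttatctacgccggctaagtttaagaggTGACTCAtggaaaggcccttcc

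The C1qb and C1qc windows each held a match to the PU.1 core GAGGAA and to the NF-kB pattern, GGGA and CC with any 4 bases between. Of 32851 promoter windows of the same length, 23.3% held the first and 17.6% the second. The PU.1 match of C1qb ended 25 bases before the start and that of C1qc, on the other strand, 188 bases before it. In C1qb the NF-kB pattern matched on both strands at overlapping positions. C3ar1 held an AP-1 match, TGANTCA (6.75% of windows), ending 16 bases before the start, and a distant TATAAA (12.4% of windows). The C/EBP (TTGCNNAA), STAT (TTCNNNGAA) and ISRE (GAAA, any 2 bases, GAAA) patterns, in 9.56%, 7.02% and 2.98% of windows, had no match in these 3 windows. A match is a description of letters and was not tested for binding.

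Hypoxic ischemia without erythropoietin is read from VEH-HI against VEH-Sham. All 3 C1q genes and the C4a/C4b probe set rose, C3ar1 rose on 1 of 3 probe sets, and Serping1 did not pass. Of the 12 probe sets 10 were bright enough to be tested and both C5ar1 probe sets were not. Of these 10, 7 were called higher and 0 lower (limma, Benjamini-Hochberg), while 9.85% of all 27022 tested probe sets were called higher and 13% lower. Their median difference was 0.64 (0.79 from VEH-Sham 5), against -0.06 over all tested probe sets. On 4 of the 10 every VEH-HI array lay above every VEH-Sham array, as on 3.71% of all tested probe sets. On 8 of the 10 all 5 VEH-HI arrays lay above VEH-Sham 5, as on 18.3% of all. The 7 calls come from 5 genes, and probe sets of 1 gene are not independent. Set A holds only sham arrays, so with the array set as a block in the model, or with set B alone, only VEH-Sham 5 stands for sham. Both settings therefore give the same differences, and the rise above VEH-Sham 5 rests on 1 sham array. The 7 probe sets counted next for those fits are not the same as the 7 calls. C4a/C4b, which was called, is not among them, at 0.49 from VEH-Sham 5. C3ar1 1419483_at, which was not called, is among them at 1.16, and VEH-Sham 5 was its lowest array at 5.34. In each of those fits 7 of the 10 had an unadjusted p under 0.05 (limma), against 6.79% of all tested probe sets with the block and 6.5% in set B alone.

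**Figure D1:**
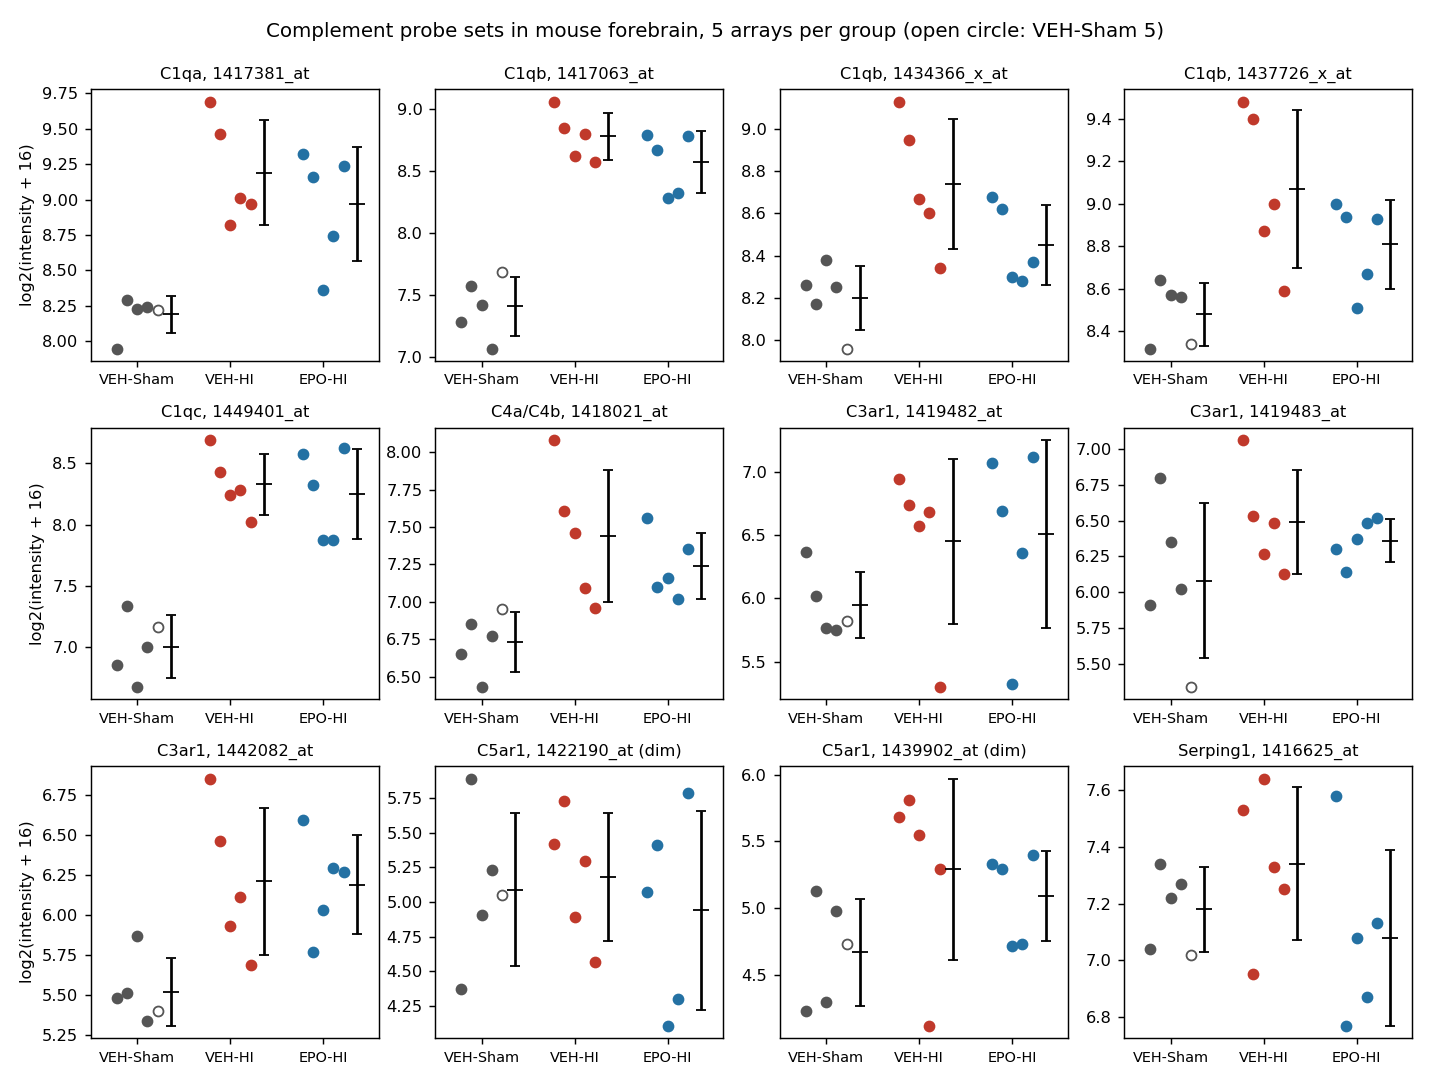
Level of each complement probe set, log2(intensity + 16) on the vertical axes, in the 5 arrays of each group; bars show the mean and SD, the open circle is VEH-Sham 5, and vertical axes differ between panels. Hypoxic ischemia arrays lie above all sham arrays for C1qa, C1qc, C1qb 1417063_at and C4a/C4b, and groups overlap on the other 8 panels.

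C1qa, which encodes the A chain of C1q, had levels of 7.95, 8.29, 8.23, 8.24 and 8.22 in VEH-Sham 1 to 5. In VEH-HI 6 to 10 it had 9.69, 9.46, 8.82, 9.01 and 8.97. The VEH-HI arrays all lay above the sham arrays, VEH-Sham 5 sat among the other shams, and VEH-HI 6 was the highest. The mean went from 8.19 ± 0.13 to 9.19 ± 0.37 (SD, n = 5 each), a 2.01-fold rise (1.00, SE 0.17, limma adjusted p = 0.00104). From VEH-Sham 5 alone the difference was 0.97 (limma adjusted p = 0.574 in set B).

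C1qc, which encodes the C chain, had 6.85, 7.33, 6.67, 7.00 and 7.16 in VEH-Sham 1 to 5. Levels in VEH-HI 6 to 10 were 8.69, 8.43, 8.24, 8.28 and 8.02. The lowest injured array was thus above the highest sham array, and VEH-Sham 5 was the second highest of the shams. The rise was 2.51-fold (1.33, SE 0.16, limma adjusted p = 7.88e-05), and 1.17 from VEH-Sham 5.

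C1qb, which encodes the B chain, was read by 3 probe sets that gave different sizes. On 1417063_at, VEH-Sham 1 to 5 had 7.28, 7.57, 7.42, 7.07 and 7.69, and VEH-HI 6 to 10 had 9.06, 8.85, 8.62, 8.80 and 8.57. These groups did not overlap, and the rise was 2.59-fold (1.37, SE 0.13, limma adjusted p = 1.12e-05) or 1.09 from VEH-Sham 5, the highest sham array. The other probe sets, 1434366_x_at and 1437726_x_at, rose by 0.53 (SE 0.13, limma adjusted p = 0.00817) and 0.58 (SE 0.14, limma adjusted p = 0.00815), with 0.77 and 0.73 from VEH-Sham 5. On both of these the VEH-HI 10 array fell inside the sham range, at 8.34 and 8.59. The suffix _x_at marks, by the maker's convention, probes that can also match other transcripts, and their part in the smaller differences was not tested.

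**Figure D2:**
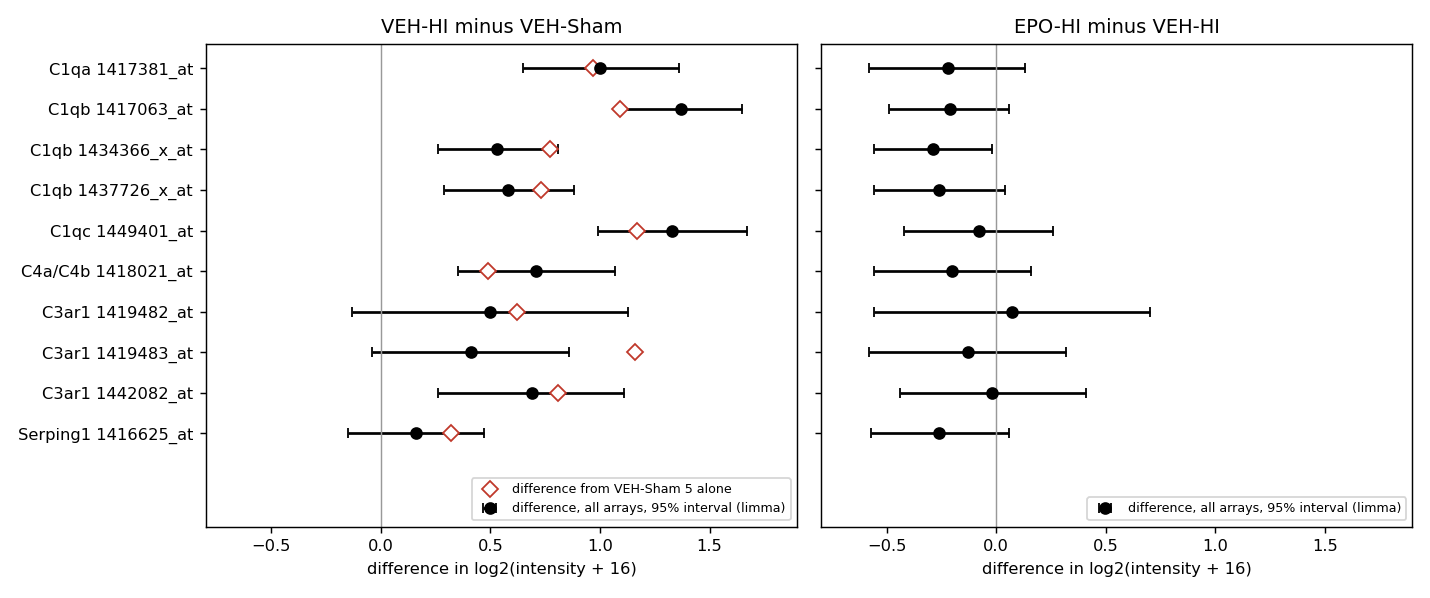
Differences in log2(intensity + 16) for the 10 tested complement probe sets, with 95% intervals from limma (n = 5 arrays per group); diamonds give the difference of the VEH-HI mean from VEH-Sham 5 alone. On the left every C1q and C4a/C4b interval lies above 0, and on the right 9 of 10 intervals include 0.

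The C4a/C4b probe set is annotated to C4a and to C4b, which encodes C4, a substrate of the C1 proteases. VEH-Sham 1 to 5 had 6.65, 6.85, 6.43, 6.77 and 6.95, and VEH-HI 6 to 10 had 8.08, 7.61, 7.46, 7.09 and 6.96. The groups met at VEH-Sham 5 and VEH-HI 10, which differed by 0.01 in printed levels, and VEH-HI 6 stood highest. The rise was 1.63-fold (0.71, SE 0.17, limma adjusted p = 0.00775), and 0.49 from VEH-Sham 5. RefSeq lists C4a as a transcribed pseudogene, and which of the copies was read cannot be told apart here.

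C3ar1, the receptor gene for C3a on microglia and other myeloid cells, passed on 1 of its probe sets. On 1442082_at, VEH-Sham 1 to 5 had 5.48, 5.51, 5.87, 5.34 and 5.40 and VEH-HI 6 to 10 had 6.85, 6.46, 5.93, 6.11 and 5.69. VEH-HI 10 lay below VEH-Sham 3, so the groups overlapped by that array, and the rise was 0.69 (SE 0.21, limma adjusted p = 0.0225; 0.81 from VEH-Sham 5). The probe set 1419482_at stood at 6.94, 6.74, 6.57 and 6.68 in VEH-HI 6 to 9 but at 5.30 in VEH-HI 10, below every sham array (5.75 to 6.37). Its difference of 0.50 did not pass (SE 0.30, limma adjusted p = 0.236; 0.62 from VEH-Sham 5). Nor did 1419483_at (0.41, SE 0.22, limma adjusted p = 0.168), on which VEH-Sham 5 was the lowest array of all at 5.34 and VEH-Sham 2 reached 6.80. From VEH-Sham 5 alone that probe set was at 1.16, the member whose difference moved most with the sham arrays used. It passed at 0.61 with quantile normalization (limma adjusted p = 0.0306) and at 0.67 with equal array medians.

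C5ar1, the receptor gene for C5a, was dim on both probe sets, which ranked at the 28.7 and 27.0 percentiles of brightness. On 1439902_at the VEH-Sham arrays spanned 4.23 to 5.13 and VEH-HI 6 to 10 had 5.68, 5.81, 5.55, 4.12 and 5.29. VEH-HI 9 was thus below all shams while the other 4 lay above them, and without the filter on brightness the difference of 0.62 did not pass (SE 0.28, limma adjusted p = 0.136). The probe set 1422190_at had 4.37 to 5.89 in VEH-Sham and 4.57 to 5.73 in VEH-HI, a difference of 0.09. From VEH-Sham 5 alone these C5ar1 differences were 0.56 and 0.13. Values this close to the pseudocount give no reliable size.

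Serping1, the inhibitor gene, had 7.04, 7.34, 7.22, 7.27 and 7.02 in VEH-Sham 1 to 5. VEH-HI 6 to 10 had 7.53, 6.95, 7.64, 7.33 and 7.25. The groups overlapped, with VEH-HI 7 below every sham array, and the difference was 0.16 (SE 0.15, limma adjusted p = 0.458, 95% interval -0.15 to 0.47; 0.32 from VEH-Sham 5). Equal array medians, which move the median of all probe sets to 0.22, put it at 0.45 with a limma adjusted p = 0.026.

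The effect of erythropoietin given before hypoxic ischemia is read from EPO-HI against VEH-HI, whose arrays all lie in set B. No complement probe set passed (0 of 10 tested, limma, smallest adjusted p = 1), against 0% of all 27022 tested probe sets. At an unadjusted p under 0.05 there was 1, C1qb 1434366_x_at (-0.29, SE 0.13, 95% interval -0.56 to -0.02), against 3.94% of all tested. The difference was below 0 on 9 of the 10, as on 51.5% of all tested probe sets, and the median was -0.21. These probe sets share genes and varied together across arrays, so the 9 are not separate observations.

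C1qa had 9.32, 9.16, 8.36, 8.74 and 9.24 in EPO-HI 11 to 15. EPO-HI 13 lay just above the highest sham array, at 8.29, and EPO-HI 11, 12 and 15 lay within the VEH-HI range. The difference from VEH-HI was -0.22 (SE 0.17, 95% interval -0.58 to 0.13, limma adjusted p = 1). For C1qc the EPO-HI arrays had 8.58, 8.32, 7.87, 7.87 and 8.63, with EPO-HI 13 and 14 below all VEH-HI arrays, and the difference was -0.08 (95% interval -0.42 to 0.26).

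C1qb 1417063_at followed the same arrays, at 8.79, 8.67, 8.28, 8.32 and 8.78 in EPO-HI 11 to 15. Its difference was -0.21 (SE 0.13, 95% interval -0.49 to 0.06). The C4a/C4b probe set had 7.56, 7.10, 7.16, 7.02 and 7.35, every one inside the VEH-HI range, and differed by -0.20 (95% interval -0.56 to 0.16). For none of these genes was a difference shown, and each interval still allows a fall of 0.42 or more.

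Among the receptors, C3ar1 1442082_at had 6.59, 5.77, 6.03, 6.29 and 6.27 in EPO-HI, a difference of -0.02 (95% interval -0.44 to 0.41). On 1419482_at EPO-HI 13 was at 5.32 and the other EPO-HI arrays at 6.36 to 7.12, a difference of 0.07 (95% interval -0.56 to 0.70). On 1419483_at the difference was -0.13 (95% interval -0.58 to 0.32). C5ar1 was at -0.25 on 1422190_at and -0.20 on 1439902_at without the brightness filter (limma adjusted p = 1 each). Serping1 had 7.58 in EPO-HI 11 and 6.77 to 7.13 in the other EPO-HI arrays. Its difference was -0.26 (SE 0.15, 95% interval -0.57 to 0.06, limma adjusted p = 1).

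EPO-HI was also compared with VEH-Sham, and this comparison shares its arrays with both of the others. Of the 10 tested probe sets 5 were called higher and 0 lower, against 7.42% called higher and 10.9% called lower of all tested. On 4 of the 10 every EPO-HI array lay above every sham array (3.16% of all), and on 8 all 5 lay above VEH-Sham 5 (17.9% of all). The 5 calls became 0 with the array set as a block and in set B alone, and 3 when VEH-Sham 1, 2 or 4 or EPO-HI 11 or 15 was left out. C1qc was 2.38-fold higher (1.25, SE 0.16, limma adjusted p = 0.000263) and 1.09 above VEH-Sham 5. C1qb 1417063_at was 2.23-fold higher (1.16, SE 0.13, limma adjusted p = 0.000122; 0.88 from VEH-Sham 5) and C1qa 1.72-fold higher (0.78, SE 0.17, limma adjusted p = 0.00633; 0.75 from VEH-Sham 5).

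C3ar1 1442082_at was 0.67 higher (SE 0.21, limma adjusted p = 0.03), and 0.79 from VEH-Sham 5. The brighter C3ar1 probe sets, 1419482_at and 1419483_at, did not pass, at 0.57 and 0.28 (limma adjusted p = 0.189 and 0.369). From VEH-Sham 5 they were at 0.69 and 1.03. The C4a/C4b probe set passed narrowly at 0.51 (SE 0.17, limma adjusted p = 0.0457; 0.29 from VEH-Sham 5), and every EPO-HI array lay above every sham array. It no longer passed when VEH-Sham 1, 2, 3 or 4, VEH-HI 7 or 8, or EPO-HI 11, 12, 13 or 15 was left out. The other 2 C1qb probe sets did not pass, at 0.24 and 0.33 (limma adjusted p = 0.192 and 0.113), nor did Serping1 at -0.10 (limma adjusted p = 0.687). Serping1 turned to 0.07 against VEH-Sham 5 and to 0.23 with equal array medians.

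Mean levels of C1qa, C1qc, C4a/C4b, all 3 C1qb probe sets and C3ar1 1419483_at and 1442082_at were ordered VEH-Sham, EPO-HI, VEH-HI. The difference between the hypoxic ischemia groups passed the adjusted test by limma for none of them, although the 95% interval of C1qb 1434366_x_at excluded 0. On C3ar1 1419482_at EPO-HI was the highest group, and on Serping1 EPO-HI was the lowest.

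The C1q genes varied together among the 10 hypoxic ischemia arrays. Over these arrays C1qa correlated with C1qc at a Pearson r of 0.88 (permutation p = 0.00051, adjusted 0.0051) and a Spearman rho of 0.94 (permutation p = 0.00024, adjusted 0.0036). For C1qa with C1qb 1437726_x_at, its brightest probe set, r was 0.89 (permutation p = 0.00068, adjusted 0.0051) and rho 0.92. For C1qb with C1qc r was 0.81 (permutation p = 0.00415, adjusted 0.0156) and rho 0.84. Without the 2 arrays farthest from the median these r were 0.81, 0.78 and 0.86, and centred within each group they were 0.89, 0.88 and 0.84.

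In all, 15 pairs of 6 genes were computed, each gene by its brightest tested probe set, and adjusted over the 15. Of these, 7 passed by Pearson and 3, the C1q pairs, by Spearman. The share of pairs among all tested genes that correlate as strongly over these arrays was not computed, so these counts have no background. The C4a/C4b probe set had r of 0.71, 0.82 and 0.75 with C1qa, C1qb and C1qc, but C1qb fell to 0.53 and C1qa to 0.62 without the 2 farthest arrays. The r of 0.73 between C4a/C4b and C3ar1 was 0.11 without VEH-HI 6 and 7 and rests on them. Serping1 had r of 0.21, 0.22 and 0.39 with the C1q genes (permutation p = 0.553, 0.535 and 0.252).

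**Figure D3:**
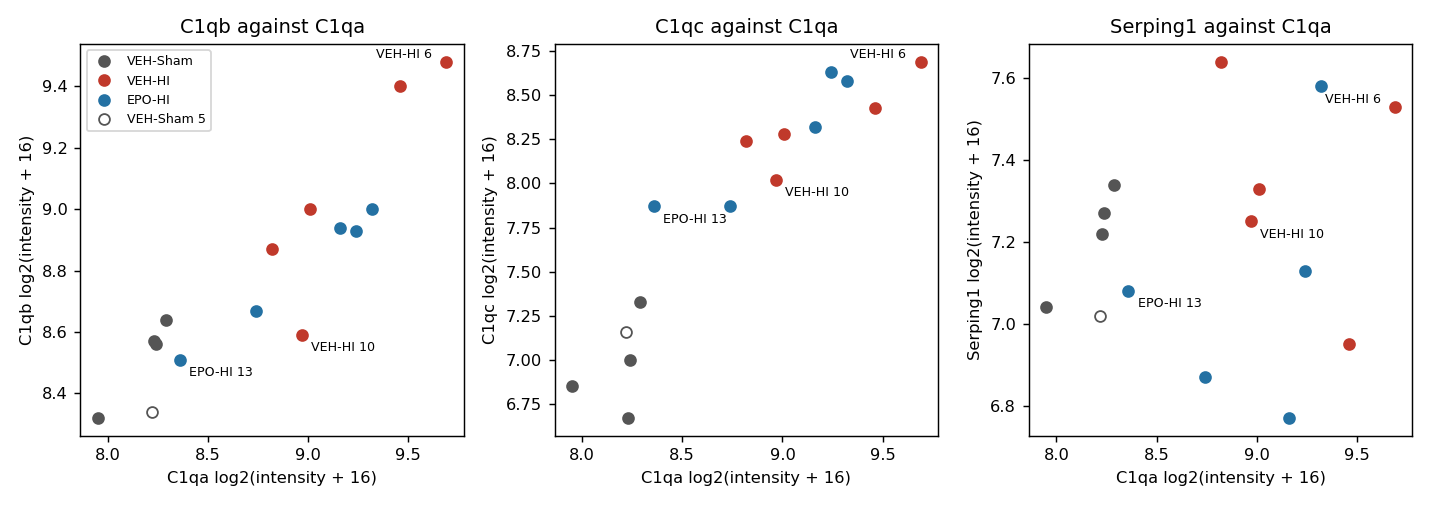
Level of C1qb 1437726_x_at, C1qc and Serping1 against C1qa, in log2(intensity + 16), 1 point per array with groups by colour and VEH-Sham 5 open. C1qb and C1qc follow C1qa from EPO-HI 13 up to VEH-HI 6, at r of 0.89 and 0.88 over the 10 hypoxic ischemia arrays, and Serping1 does so at 0.21.

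VEH-HI 6 was the highest of the 10 arrays for C1qa, C1qb, C1qc, C4a/C4b and C3ar1 by their brightest probe sets. EPO-HI 13 was the lowest for C1qa and C1qb and tied with EPO-HI 14 for C1qc at the printed precision, and VEH-HI 10 was the lowest for C4a/C4b and C3ar1. Lists of cell markers varied across the same arrays. VEH-HI 6 was also the highest of all arrays for the means of the reactive astrocyte, astrocyte, microglia, monocyte and border macrophage, endothelium and meninges lists. The same held for Alas2 (8.34 in VEH-HI 6), the only tested gene of 7 in a liver and blood list. For the mean of the neuron list VEH-HI 6 was the lowest of all arrays, at 10.65. The mean of 8 reactive astrocyte genes was 9.46 in VEH-HI 6, 7.71 in VEH-HI 10 and 7.93 in EPO-HI 13, and 6.96 to 7.23 in the shams. The mean of 11 microglia markers was 7.82, 7.57 and 7.35 in the same 3 injured arrays.

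**Figure D4:**
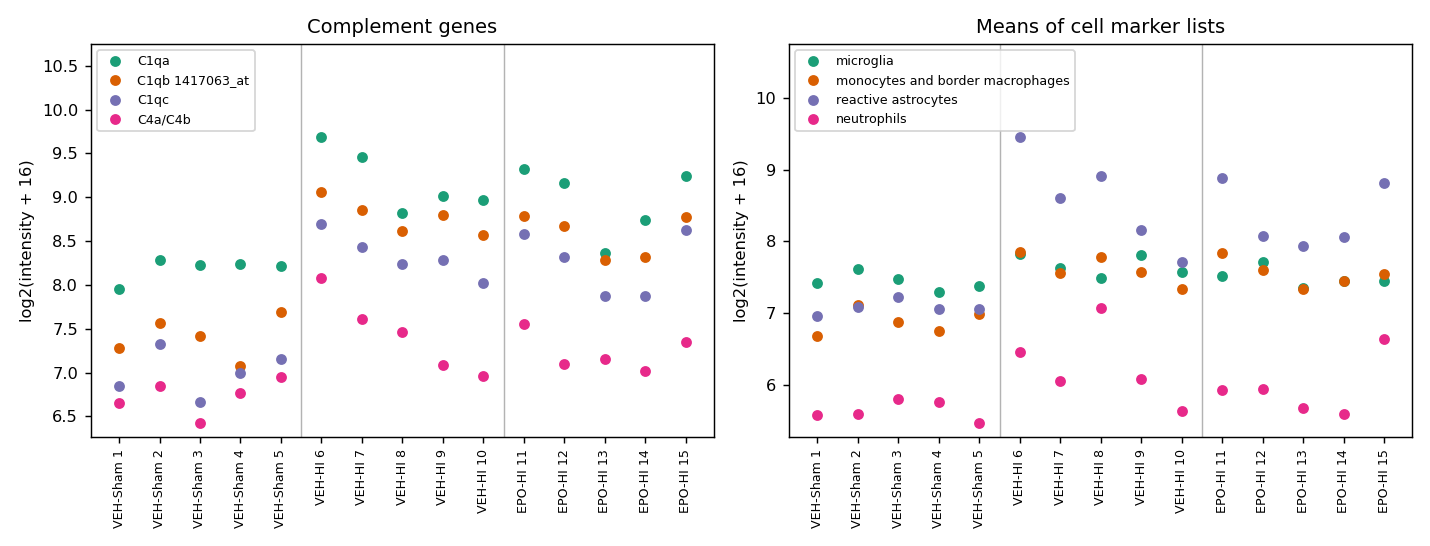
Levels of C1qa, C1qb 1417063_at, C1qc and C4a/C4b (left) and mean levels of 4 lists of cell markers (right) in each of the 15 arrays, in log2(intensity + 16), with vertical lines between groups. VEH-HI 6 is highest for the complement genes and for the reactive astrocyte list (9.46), and also for the microglia list, which spans 7.30 to 7.82 over all arrays.

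Microglia markers were measured on the same arrays. Of 13 listed markers 11 were tested, 3 rose and 1 fell in VEH-HI against VEH-Sham, with a median of 0.16 (0.19 from VEH-Sham 5), against 11.9% higher and 11.5% lower calls among 13168 tested genes. Tyrobp, a signalling adaptor, rose by 1.13 (0.93 from VEH-Sham 5), Fcrls by 0.96 (0.82) and Csf1r, the receptor for microglial survival factors, by 0.48 (0.15). P2ry12, a purine receptor of resting microglia, fell by 0.72 (-0.55 from VEH-Sham 5). The summed intensity of the 11 markers was 2017 to 2656 in VEH-Sham (2424 in VEH-Sham 5), 2526 to 3629 in VEH-HI and 2201 to 3103 in EPO-HI.

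Against the mean of those 11 markers on the same array, a measure chosen after seeing the data, C1qc was 1.10 higher in VEH-HI than in VEH-Sham (0.89 from VEH-Sham 5). C1qb 1417063_at was 1.15 higher (0.81) and C1qa 0.78 higher (0.69). Each of the 3 had an exact two-sided permutation p = 0.00794, the smallest that 252 splits can give. These splits exchange arrays without regard to the array set, which differs between the groups, so group and set cannot be told apart by this p. Adjusted over the 20 tests of all tested probe sets each was 0.0529 and did not pass. Over 12 tests with 1 probe set per gene, the family first computed before it was widened to all tested probe sets, it was 0.0476 for C1qa and C1qc, and C1qb 1437726_x_at, at 0.36, had an adjusted p = 0.238 in the same exact test. For C4a/C4b (0.48), C3ar1 (0.18 to 0.46) and Serping1 (-0.07) the exact p was 0.0476 or more. In EPO-HI against VEH-HI the 10 values lay between -0.12 and 0.24.

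Part of the other listed myeloid markers also rose in VEH-HI, where 11.9% of 13168 tested genes were called higher. Of 9 listed markers of monocytes and border macrophages 5 were tested, and 4 rose in VEH-HI: Fn1 (1.18), Lyve1 (1.15), Mrc1 (0.67) and Pf4 (0.51). From VEH-Sham 5 these were at 0.86, 0.97, 0.63 and 0.52. Lyve1 was dim in VEH-Sham (mean 5.59), and F13a1 did not pass, at 0.20 (limma adjusted p = 0.375). The summed intensity of the 5 tested markers was 548 to 655 in VEH-Sham and 894 to 1409 in VEH-HI. The monocyte receptor gene Ccr2 was too dim to be tested. Of 7 tested neutrophil markers 2 rose, S100a9 (2.45, and 1.74 from VEH-Sham 5) and Csf3r (1.11, and 1.09 from VEH-Sham 5). Both were dim in VEH-Sham, with means of 4.84 and 4.94, below the lowest tested mean of 5.46. They were thus bright enough to be tested only because of the hypoxic ischemia arrays, so their rise is tied to the filter on brightness. S100a9 ran from 4.83 in VEH-HI 10 to 10.13 in VEH-HI 8, while the shams spanned 4.31 to 5.55. S100a8 was at 1.66 without passing (SE 0.64, limma adjusted p = 0.0657), and at 1.96 from VEH-Sham 5. The summed intensity of the 7 markers was 204 to 347 in VEH-Sham and 249 to 2493 in VEH-HI. The granule genes Mpo, Elane, Ngp and Ltf were at -0.39 to 0.02 and did not pass, and at -0.02 to 0.33 from VEH-Sham 5. The part of any of these cells in the complement values was not tested, and in whole tissue more cells of a type and more RNA per cell cannot be told apart.

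Of 8 tested reactive astrocyte genes 7 rose (median 1.34, 1.43 from VEH-Sham 5), with a summed intensity of 2256 to 2522 in VEH-Sham and 4278 to 9632 in VEH-HI. Of 9 astrocyte markers 5 rose (median 0.40, 0.14 from VEH-Sham 5), and of 8 neuron markers 2 fell (median -0.19, -0.24 from VEH-Sham 5). The background for these counts, over 13168 genes in VEH-HI against VEH-Sham, was 11.9% higher and 11.5% lower. None of the counts was tested against those shares.

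Outside the members, the calls for other complement genes went both ways and their split depended on the scaling. A list of 56 further genes held 46 with a probe set, of which 22 were bright enough to be tested. In VEH-HI against VEH-Sham 3 rose and 3 fell, near the share of all genes (11.9% and 11.5%), and the median was -0.10 (0.12 from VEH-Sham 5). With equal array medians 8 rose and 0 fell, and with quantile normalization 4 rose and 1 fell. None of the 7 listed terminal components was tested. Of the 15 genes that start the classical and lectin pathways 4 were tested and 0 passed, among them C2 at -0.22 and the lectin protease gene Masp1 at -0.15. From VEH-Sham 5 C2 turned to 0.23 and Masp1 was at -0.09. At an unadjusted p under 0.05 by limma there was 1 of these 4, the ficolin gene Fcna at -0.32 (adjusted p = 0.106; -0.44 from VEH-Sham 5).

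Of 3 tested soluble regulators Vtn, which encodes vitronectin, rose by 0.45 (SE 0.14, limma adjusted p = 0.027; 0.00 from VEH-Sham 5). Clu, which encodes clusterin, an inhibitor of the terminal complex, rose by 0.35 (SE 0.12, limma adjusted p = 0.0445; 0.23 from VEH-Sham 5). Of 8 membrane regulators Cd46 (-0.58) and Csmd2 (-0.80) fell, and from VEH-Sham 5 they were at -0.22 and 0.16. Of 6 receptors and C1q-binding proteins C1qbp rose by 0.39 (0.19 from VEH-Sham 5) and Cr2 fell by 0.61 (-0.28 from VEH-Sham 5). Cd46, Csmd2 and Cr2 were dim, with VEH-HI means of 5.94, 5.95 and 5.33, against a lowest tested mean of 5.46. Cr2 lay below that in VEH-HI and in EPO-HI (5.33 in each) and above it in VEH-Sham (5.93). It was thus tested only because of VEH-Sham, so its fall is tied to the filter on brightness. Csmd2 was at 6.87 to 7.12 in VEH-Sham 1 to 4 and at 5.79 in VEH-Sham 5. Itgb2, the shared chain of the integrin complement receptors, was at 0.44 without passing (limma adjusted p = 0.101; 0.38 from VEH-Sham 5). Of the 6 called genes Csmd2 was the one whose direction turned with the sham arrays used, and Vtn had no difference from VEH-Sham 5 at the printed precision.

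In EPO-HI against VEH-HI 0 of the 22 passed (limma), with Vtn at -0.31 the only one with an unadjusted p under 0.05 (adjusted p = 1). In EPO-HI against VEH-Sham 1 of the 22 rose, C1qbp (0.32), and 3 fell, Csmd2 (-0.95), the scavenger lectin gene Colec12 (-0.48) and Cfi, the protease that inactivates C3b and C4b (-0.53). This split also depended on the scaling, with 9 higher and 1 lower with equal array medians and 2 higher and 1 lower with quantile normalization. That comparison called 8.86% of tested genes higher and 9.46% lower. From VEH-Sham 5 alone these 4 were at 0.13, 0.01, -0.23 and -0.04.

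By Pearson r over the 10 hypoxic ischemia arrays, 12500 named genes were set against each member, and the closest are given as a description. For C1qc they were Slc15a3, a lysosomal peptide transporter gene (0.96, rho 0.98), the interferon-induced Gbp2 (0.96, rho 0.94) and S100a1 (0.95). For C1qa they were Igfbp2, Eif6 and Gstm1 (0.96 each). For C1qb 1437726_x_at they were Lats2 (0.96), Fkbp9 (0.95) and Clu (0.94), and all of these were also read by probe sets of the _x_at kind. With 1417063_at, tried after seeing this, Crip1 and Nmbr (0.97 each) and Ifitm2 (0.95) took their place.

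Closest to C4a/C4b were Ncf4, a subunit gene of the phagocyte oxidase (0.95), the tight junction gene Cldn5 (0.94) and Dab2 (0.94). C3ar1 1419483_at had Tbxas1, the thromboxane synthase gene (0.91), Lmln (0.91) and Cbfb (0.90), and Serping1 had Hars2 (0.91), D2hgdh (0.91) and Prom1 (0.90). By the mean r with the 3 C1q genes the order was Crip1 (0.93), Clu (0.91), Slc15a3 (0.90), Fkbp9 (0.90) and Ramp2 (0.89). The highest of so many correlations over 10 arrays are large by selection.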

How the data were processed

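The authors deposited 1 linear intensity per probe set and array, and no source used here names the software behind it. In these values, each deposited array has a mean intensity of 150.0 after 2% of probe sets are trimmed at each end. Of 45101 probe sets 64 controls were left out. Of the rest 34945 had 1 gene symbol in the platform annotation, 932 several and 9160 none, and symbols were updated by gene number (0 changed).

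Values were taken as log2(intensity + 16). The 60% brightest probe sets by mean over all arrays (27022, at least 5.46) were tested in 1 model of 3 group means over 15 arrays in limma 3.58.1 (R 4.3.3, eBayes with trend), two-sided, with Benjamini-Hochberg adjustment over all of them and a threshold of 0.05. The scripts were tested on simulated data. The number of arrays limits the precision. The array sets are separated where sorted array medians leave their widest gap.

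The members and lists were chosen with earlier results of these data known. All members were named, with other complement genes and markers chosen by smallest p and the 3 most alike genes per member. Correlation tests used 100000 resamples. Of 28 pairs planned for 8 genes, those of the 6 genes with a tested probe set were made. Alternatives were other scalings, pseudocounts of 1 and 64, no brightness filter, compared groups only, no trend, the array set, and each array left out. Figures were drawn with matplotlib 3.10.9.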

Additional observations from a re-analysis of the deposited data

Results flagged for a closer look

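Of 36 groups of 5 arrays (12 probe sets in 3 groups), 2 held an array far from the other 4, and chance gives about 1 in 20. C1qa in VEH-Sham 1 was at 7.95, with the other shams at 8.22 to 8.29. C3ar1 1419482_at in VEH-HI 10 was at 5.30, with the other VEH-HI arrays at 6.57 to 6.94.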

How the results depend on the processing

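No paired analysis was possible because replicate numbers run through the whole series and no groups share a number. With the array set as a block and in set B alone, the count of complement probe sets called was 0 in each comparison, against 7 for VEH-HI and 5 for EPO-HI over VEH-Sham, and that of other complement genes 0, against 6 and 4. C1qa, C1qc, C1qb and C4a/C4b kept their direction there, and for comparisons with VEH-Sham both settings rest on VEH-Sham 5 alone. For EPO-HI over VEH-Sham, equal array medians called 9 complement probe sets and 10 other complement genes (9 higher, 1 lower, against 1 and 3). For the other complement genes, leaving out VEH-Sham 5 gave 7 calls of 22 tested. Without the brightness filter there were 8 calls, but of 46 tested, against 4 of 22 with the filter. Leaving out 1 array gave 6 to 8 calls for VEH-HI and 3 to 5 for EPO-HI over VEH-Sham, with 3 without any 1 of VEH-Sham 1, 2 and 4 and EPO-HI 11 and 15, and 0 for EPO-HI over VEH-HI. Serping1 in EPO-HI over VEH-Sham turned from -0.10 to 0.23 with equal array medians and to 0.07 with the block and in set B. In EPO-HI over VEH-HI, leaving out 1 array moved C1qc between -0.17 and 0.02, above 0 without VEH-HI 6, EPO-HI 13 or EPO-HI 14, and C3ar1 between -0.22 and 0.01, above 0 without VEH-HI 6. The cause of these turns was not tested. No setting gave a complement call for EPO-HI over VEH-HI. Dim signal limits C5ar1 and C3ar1, and Cd46, Csmd2 and Cr2 among the other complement genes.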
